A study of Mus musculus with 18 samples.

Results

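The vacuolar-type proton pump (V-ATPase) and the genes that mark intercalated cells were followed by RNA sequencing in the thick ascending limb (TAL) of the mouse kidney. The members were taken by name: every gene whose name starts with Atp6v or Atp6ap, pseudogenes left out, plus Slc4a1, Slc4a9, Slc26a4, Slc26a7, Foxi1, Aqp6, Rhcg and Rhbg. This gave 34 genes of the 55401 in the tables, of which 26 carry pump names and 8 were chosen as intercalated cell genes. The 26 pump genes were divided into 16 that most cells use and 10 that are restricted to some cell types, and the 2 classes are described apart. Atp6v1fnb, placed with the latter by its name, is named as a neighbour of Atp6v1f and is not known as a pump subunit.

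Segments were dissected from the cortex (CTAL) and the medulla (MTAL) of adult male mice on a C57BL/6J background, as the labels give it. All mice carried floxed Cldn10 alleles (Cldn10 fl/fl), a gene for the tight junction claudin through which sodium passes between TAL cells. The conditional knockouts (cKO) also carried Ksp-Cre, in which the promoter of Ksp-cadherin drives Cre along the distal nephron and collecting duct, and the controls (WT) were littermates without Cre. There were 5 pools of WT CTAL, 5 of cKO CTAL, 5 of WT MTAL and 3 of cKO MTAL, each pool holding the tubules of a distinct mouse. The medulla of cKO kidneys is calcified, and further pools that the study set aside were not analysed here. A pool is called by its group and the number in its label, for example cKO MTAL 20, and values of a group are listed in the order of these numbers (1, 3, 8, 10 and 22 for WT CTAL; 2, 4, 7, 9 and 21 for cKO CTAL; 11, 13, 15, 17 and 19 for WT MTAL; 16, 18 and 20 for cKO MTAL).

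Depth was 10824299 to 62339939 counts per pool. Cldn10 stood at 383 to 579 CPM (read counts scaled to the TMM-normalized library size) in WT CTAL and 156 to 185 in cKO CTAL, and at 665 to 823 in WT MTAL and 151 to 283 in cKO MTAL, so that the genotypes did not overlap but the transcript was not lost. The labels of WT CTAL 1 conflict on the genotype. Its Cldn10 level of 446 CPM lay in the WT range, it was used as WT, and calls of members that changed without it are named. Genes other than the members were not checked without this pool. TAL marker genes summed to 50206 to 97174 CPM in every pool, while genes of the principal cells of the collecting duct summed to 53.5 to 995 CPM. The highest sums of principal cell genes were in cKO MTAL 20 (995 CPM), WT MTAL 11 (334 CPM) and a cKO CTAL pool (307 CPM), and these pools also stood apart in several intercalated cell genes. All pools are of bulk tubules, in which more cells of a type and more RNA per cell cannot be told apart.

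The V-ATPase pumps protons across membranes at the cost of ATP. Its V1 sector in the cytosol holds the A and B subunits that bind and split ATP, the C, E, G and H subunits of the stalks, and the D and F subunits of the rotor. Its V0 sector in the membrane holds the ring of c subunits (Atp6v0c and Atp6v0b) and the a, d and e subunits. Every cell needs the pump to acidify lysosomes and endosomes, and some subunits have a second gene used by few cells: the B1 (Atp6v1b1) and a4 (Atp6v0a4) subunits are known from intercalated cells of the collecting duct, where the pump secretes protons into urine, and mutations of either cause distal renal tubular acidosis. Type A intercalated cells exchange chloride for bicarbonate on the blood side through Slc4a1 (AE1), type B cells do so on the luminal side through Slc26a4 (pendrin), and Foxi1 is the transcription factor on which their identity depends. The TAL also secretes protons and reabsorbs bicarbonate.

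The promoters of 3 subunits of V1 are printed because their genes carry the results that follow: B1, the cell-specific subunit, and the A and F subunits, the 2 ubiquitous ones with the largest difference between WT segments. Each run is the 250 bases before the RefSeq start of the gene in GRCm38.p6 (mm10), read 5′ to 3′ on the strand of the gene, with matches to 2 motifs in capitals.
Atp6v1b1 (chr6:83742767-83743016, plus strand): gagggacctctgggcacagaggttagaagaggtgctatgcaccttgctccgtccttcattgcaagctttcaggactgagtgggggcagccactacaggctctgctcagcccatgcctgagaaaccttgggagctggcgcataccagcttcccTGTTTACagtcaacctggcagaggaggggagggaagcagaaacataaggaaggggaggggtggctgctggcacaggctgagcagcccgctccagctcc
Atp6v1a (chr16:44139260-44139509, minus strand): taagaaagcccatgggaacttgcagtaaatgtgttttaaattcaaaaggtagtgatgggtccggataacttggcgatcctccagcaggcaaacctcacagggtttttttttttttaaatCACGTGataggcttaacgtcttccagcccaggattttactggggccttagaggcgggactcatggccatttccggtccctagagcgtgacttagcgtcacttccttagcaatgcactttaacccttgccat
Atp6v1f (chr6:29467533-29467782, plus strand): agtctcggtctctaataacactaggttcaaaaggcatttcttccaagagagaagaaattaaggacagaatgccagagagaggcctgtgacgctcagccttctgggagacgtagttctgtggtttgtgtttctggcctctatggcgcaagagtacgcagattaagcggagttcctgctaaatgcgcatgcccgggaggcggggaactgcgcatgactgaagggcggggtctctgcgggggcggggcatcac
The motifs searched on both strands were CACGTG, the E-box of TFEB and related factors that act on lysosome genes, which reads the same on either strand, and TGTTTAC, a core bound by forkhead factors, the family of Foxi1. The 2 do not overlap each other. The forkhead core began 98 bases before the start of Atp6v1b1 and the E-box 131 bases before that of Atp6v1a, and the Atp6v1f window held neither. In GENCODE M21 the Atp6v1a gene reaches base 44139705, so that its window and E-box lie within that gene. The Atp6v1b1 and Atp6v1f genes start there at 83742990 and 29467718, inside their windows. The RefSeq table held 23 of the 34 members. CACGTG was in the windows of 3 of them (Atp6v0b, Atp6v1a and Aqp6), against 6.02% of 32817 promoters, and TGTTTAC in 1, against 3.16%. These matches describe letters in a window and show no binding.

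All 16 ubiquitous subunits were read in every pool. Compared in TPM, which is scaled to transcript length and to the same total in every pool, the ring subunit Atp6v0c led in WT CTAL with a median of 263 TPM, followed by the rotor subunit Atp6v1f (257 TPM), the stalk subunit Atp6v1e1 (209 TPM) and the catalytic subunit Atp6v1a (195 TPM). Their pools overlapped, so this order is not firm. Counts of Atp6v0c, Atp6v1g1 and Atp6ap2 were not whole in 18 of 18 pools and so held reads shared with other genes. Of the cell-specific subunits, Atp6v1b1 (139.9 TPM) and Atp6v0a4 (102 TPM) stood among the ubiquitous ones, ranked 7 and 9 of the 34 members. The other cell-specific subunits and the intercalated cell genes lay far below, from 10.6 TPM for the vesicle channel Aqp6 down to 1.11 TPM for the anion exchanger Slc26a7 among those detected. Atp6ap1l had no count in any of the 18 pools, which allows a level of up to 0.0457 to 0.282 CPM by pool (3 counts, counting error only). Atp6v1e2, known from testis, and Atp6v1fnb stayed at or under 0.211 CPM. These 3 genes did not pass the filter on low counts in any comparison and were not tested.

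Within a pool, the 2 genes of a subunit can be set against each other as shares of their summed TPM. The B1 gene Atp6v1b1 made 77.9, 78, 83.4, 75.3 and 78.4% of B subunit transcripts in the WT CTAL pools, and 50.1, 41.7, 43.2, 58.6 and 43.1% in the WT MTAL pools. In WT MTAL the ubiquitous B2 gene Atp6v1b2 made more than B1 in 3 of 5 pools, and in WT CTAL in none. In cKO MTAL the share of Atp6v1b1 was 73.1, 60.6 and 74.6%, above every WT MTAL pool, and in cKO CTAL it was 75.9, 76.9, 79.5, 81.6 and 83.8%, overlapping WT CTAL. The a4 gene Atp6v0a4 was the main a subunit gene in every pool, with a median share of 68.0% in WT CTAL, 72.5% in cKO CTAL, 59.4% in WT MTAL and 65.8% in cKO MTAL, the rest being Atp6v0a1 and Atp6v0a2 (the a3 gene Tcirg1 does not carry the name by which members were taken and was left out of this sum). The d2 gene Atp6v0d2, also known from osteoclasts and macrophages, made 10.8 to 16.1% of d subunit transcripts in WT CTAL and 16.3 to 42.7% in cKO CTAL. In MTAL it ranged from 3.09 to 28.2% in WT and from 6.40 to 29.6% in cKO, so the groups overlapped. The kidney-enriched C2 gene Atp6v1c2 held 11.6 to 15.9% of C subunit transcripts in WT CTAL and 4.34 to 7.12% in WT MTAL. Atp6v1g3, the G subunit of intercalated cells, held 1.06 to 10.4% of G subunit transcripts in all pools but cKO MTAL 20, where it held 27.4%. The e2 gene Atp6v0e2 stayed between 0.561 and 3.78% of e subunit transcripts. These shares were not tested.

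**Figure D1:**
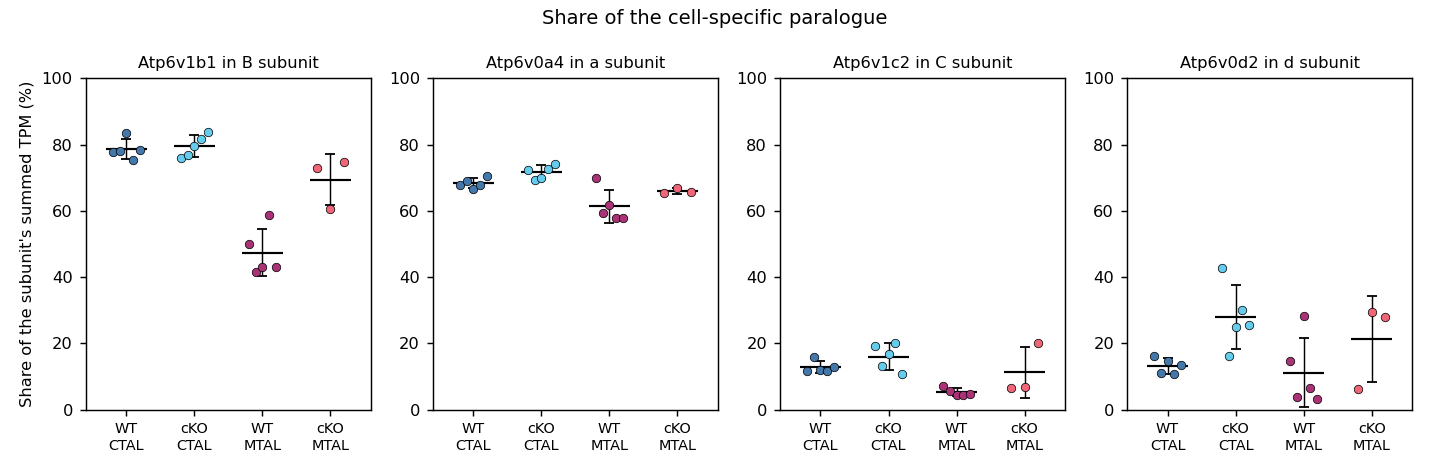
Share of the cell-specific gene in the summed TPM of its subunit (percent, 0 to 100) in each pool of the 4 groups; the line is the mean and the bar the SD over 5 pools (3 in cKO MTAL). The 5 WT MTAL pools sit between 41.7 and 58.6% for Atp6v1b1, below all pools of the other groups.

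The segments were compared first in WT mice. Of 29 members tested, 9 had lower levels in the WT MTAL than in the WT CTAL and none a higher one, where 4.1% of 11650 genes passed in this direction (edgeR's quasi-likelihood test, adjusted p < 0.05 over all genes tested). By sector, 6 of 12 tested V1 genes and 2 of 9 V0 genes were lower. The median log2 fold change was -0.15 for the 16 ubiquitous subunits, -0.61 for the 7 cell-specific ones and -0.26 for the 6 intercalated cell genes tested, beside 0.02 for all genes.

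The B1 subunit differed most. Atp6v1b1 read 259.6, 179, 282, 196 and 218 CPM in the WT CTAL pools and 81.1, 48.8, 54.3, 78.8 and 52.4 CPM in the WT MTAL pools. The groups did not overlap, and the level was 3.63 times lower in WT MTAL (log2 fold change -1.86, SE 0.159, adjusted p = 1.68e-06). Its ubiquitous counterpart Atp6v1b2 read 102, 72.4, 82.8, 91.2 and 86.1 CPM in WT CTAL and 113, 95.7, 102, 81.8 and 104 CPM in WT MTAL. These ranges overlapped (log2 fold change 0.18, SE 0.103, adjusted p = 0.374).

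Among the other cell-specific subunits, Atp6v0a4 read 274, 264, 225, 266 and 219 CPM in WT CTAL and 222, 158, 171, 157 and 155 CPM in WT MTAL. All WT MTAL pools but WT MTAL 11 lay below WT CTAL (log2 fold change -0.54, SE 0.107, adjusted p = 0.0041). Atp6v0a4 overlaps Tmem213, Gm23231 and D630045J12Rik, 1 of them on the same strand, and its counts held shared reads, so part of its level may belong to another gene. The low C subunit gene Atp6v1c2 read 8.29, 11.8, 8.43, 9.32 and 5.83 CPM in WT CTAL and 6.22, 3.15, 2.57, 2.49 and 4.02 CPM in WT MTAL, again with WT MTAL 11 alone in the CTAL range (log2 fold change -1.26, SE 0.288, adjusted p = 0.012). Atp6v0d2 did not pass (-0.78, adjusted p = 0.283), and without WT MTAL 11, the WT MTAL pool with the highest level of 16.3 CPM, its log2 fold change was -1.33 with an adjusted p of 0.00955. The other 3 tested, Atp6v0e2, Atp6v1g2 and Atp6v1g3, read under 10 CPM in every WT pool and did not pass.

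Of the ubiquitous subunits, 5 of 16 were less expressed in WT MTAL, each with no overlap between the groups (4.09% of all genes tested were apart in this direction). Levels in WT CTAL are given first, then those in WT MTAL. Atp6v1f read 136, 110.3, 125, 105 and 136 CPM in WT CTAL and 68, 73.7, 53.8, 61.4 and 74.5 CPM in WT MTAL (log2 fold change -0.90, SE 0.105, adjusted p = 3.77e-05). The catalytic A subunit Atp6v1a read 544, 381, 492, 448 and 440.5 CPM and 317, 288, 266, 282 and 296 CPM (log2 fold change -0.68, SE 0.0917, adjusted p = 0.000144). Both were thus lower in every WT MTAL pool, Atp6v1f by 1.86 times and Atp6v1a by 1.60 times. Counts of Atp6v1f were not whole in 14 of 18 pools and so held reads shared with other genes. Atp6v1e1 of the stalk read 225, 208, 193, 195 and 171 CPM and 145, 142, 135, 139 and 169 CPM (log2 fold change -0.45, SE 0.0877, adjusted p = 0.00353). Atp6v1e1 overlaps Slc25a18 and the microRNA gene Gm25193, 1 on the same strand and 1 on the other, and its counts were whole in every pool. Atp6v1h, which couples V1 to V0, read 82.2, 73.2, 70.5, 74.6 and 72.5 CPM and 65.7, 63, 49, 56.3 and 49.5 CPM (log2 fold change -0.40, SE 0.0984, adjusted p = 0.0175). Its call was lost without WT CTAL 1 (adjusted p = 0.0685), or with that pool counted as cKO CTAL (0.0685). The small membrane subunit Atp6v0e read 85.9, 88.7, 84.4, 89.2 and 80.3 CPM and 65, 72.4, 65.1, 58.9 and 79.9 CPM (log2 fold change -0.34, SE 0.0902, adjusted p = 0.0312). Its call was the least firm of the 5, being lost in 7 of 10 fits that left out a pool (adjusted p up to 0.0812), with WT CTAL 1 counted as cKO CTAL (0.0764), with limma on log2(TPM + 1) (0.0815) or log2(TPM + 0.1) (0.0822) and without the filter on low counts (0.0976). The remaining 11 ubiquitous subunits had log2 fold changes from -0.30 (Atp6v0b) to 0.18 (Atp6v1b2) and did not pass, among them the ring subunit Atp6v0c (-0.25, adjusted p = 0.149).

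One of 6 tested intercalated cell genes was lower in WT MTAL. Slc4a9 (AE4), an anion exchanger on the blood side of type B intercalated cells, read 3.97, 9.79, 5.83, 5.12 and 4.51 CPM in WT CTAL and 2.40, 2.09, 1.56, 2.31 and 1.63 CPM in WT MTAL, with no overlap (log2 fold change -1.54, SE 0.288, adjusted p = 0.00267). Slc26a4 read 3.23, 6.40, 3.47, 4.81 and 3.0 CPM and 1.52, 1.63, 1.56, 1.49 and 1.22 CPM. These groups were also apart, but Slc26a4 did not pass the filter of 3 CPM in 5 pools and was tested only without it (log2 fold change -1.47, SE 0.325, adjusted p = 0.0127). Slc4a1, Aqp6, Slc26a7, Foxi1 and Rhcg overlapped between the segments, with log2 fold changes from -0.71 (Rhcg) to 0.37 (Aqp6). Rhcg read 12.3, 21.3, 11.5, 14.9 and 20.3 CPM in WT CTAL and 26.6, 4.33, 9.52, 4.86 and 4.43 CPM in WT MTAL, so that all WT MTAL pools but WT MTAL 11 lay below WT CTAL, and without that pool it passed (log2 fold change -1.48, adjusted p = 0.00399). Of the principal cell genes, 1 of 6 tested (Scnn1b, of the epithelial sodium channel) was lower in WT MTAL as well (-1.10, adjusted p = 0.0431). Its list summed to 115 to 229.6 CPM in WT CTAL and 53.5 to 334 CPM in WT MTAL. The connecting tubule gene Slc8a1 was lower too (-1.17, adjusted p = 0.0459), and of 6 tested immune cell genes C1qa and C1qb were lower and Csf1r higher. The part of these cells in the segment difference was not tested.

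**Figure D2:**
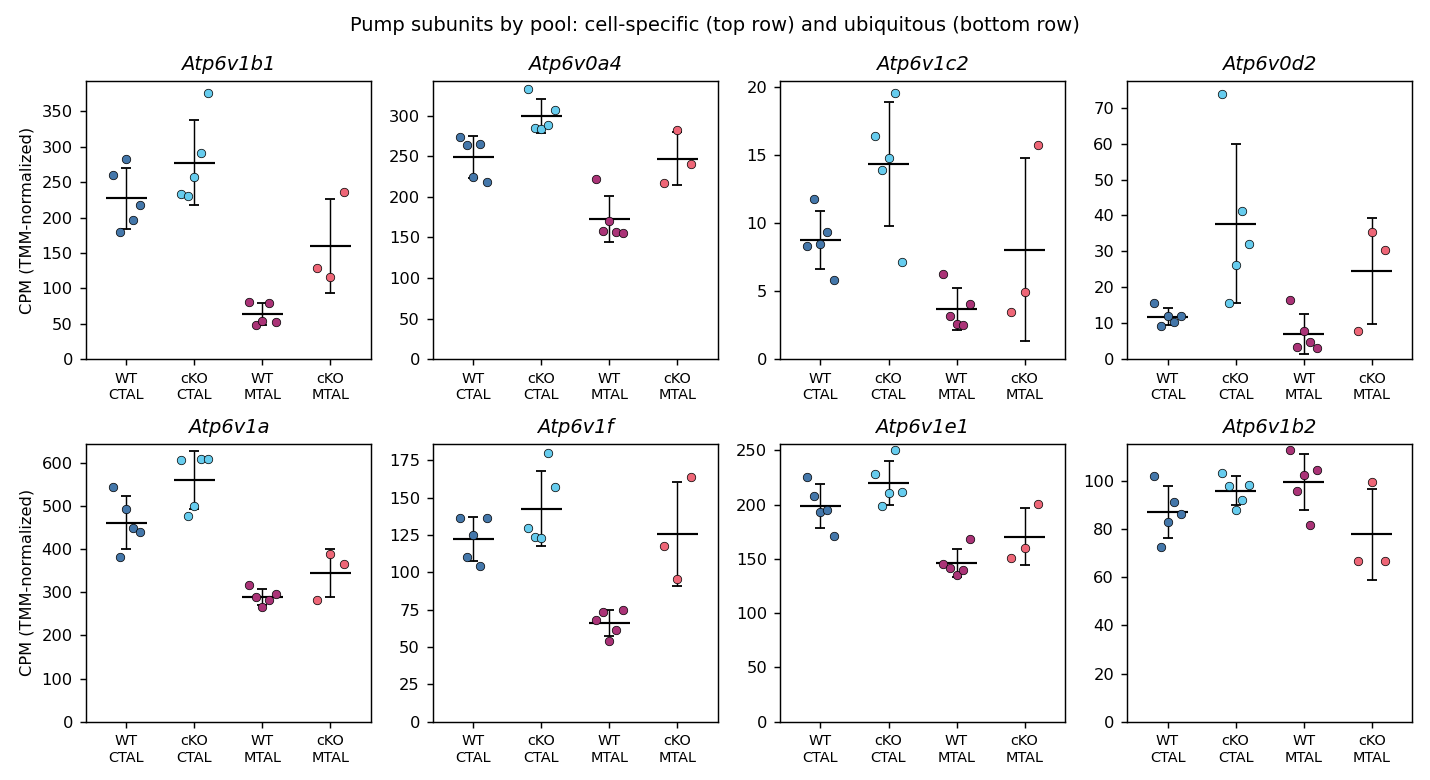
CPM of 4 cell-specific (top) and 4 ubiquitous (bottom) subunits in each pool, on linear axes from 0; the line is the mean and the bar the SD over 5 pools (3 in cKO MTAL). Atp6v1b1 and Atp6v1f are lowest in the 5 WT MTAL pools, at 48.8 to 81.1 and 53.8 to 74.5 CPM.

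The cKO and WT were compared in the MTAL next. Of 29 members tested, 5 had higher levels in the cKO MTAL than in the WT MTAL and none a lower one, where 4.44% of 12060 genes passed in this direction. They were 3 of 7 tested cell-specific subunits (Atp6v1b1, Atp6v0a4 and Atp6v0d2), 1 of 16 ubiquitous subunits (Atp6v1f) and 1 of 6 tested intercalated cell genes (Slc4a9). The median log2 fold change was 0.19 for ubiquitous subunits, 1.18 for cell-specific ones and 0.88 for intercalated cell genes, beside 0.00 for all genes. The pools of 3 of the 29 members did not overlap between the groups, all with cKO MTAL higher, against 5.61% of genes tested.

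Atp6v1b1 read 128, 116 and 236 CPM in cKO MTAL against 48.8 to 81.1 CPM in WT MTAL, 2.63 times higher and with no overlap (log2 fold change 1.39, SE 0.217, adjusted p = 0.00113). Without cKO MTAL 20, the highest pool, its log2 fold change was 1.01 (adjusted p = 0.008). Atp6v1b2 read 66.8, 99.5 and 66.8 CPM against 81.8 to 113 CPM and did not pass (log2 fold change -0.31, SE 0.150, adjusted p = 0.229), but was lower without cKO MTAL 18 (-0.51, adjusted p = 0.0497). Atp6v0a4 read 217, 282 and 241 CPM in cKO MTAL, where WT MTAL 11 overlapped the lowest of them (log2 fold change 0.56, SE 0.133, adjusted p = 0.0186). Its call was lost without WT MTAL 19 (adjusted p = 0.0544) or without cKO MTAL 18 (0.0581). Atp6v0d2 read 7.82, 35.5 and 30.4 CPM in cKO MTAL and 16.3, 3.34, 7.91, 4.70 and 3.0 CPM in WT MTAL. The groups overlapped, cKO MTAL 16 lying among the WT pools (log2 fold change 1.86, SE 0.508, adjusted p = 0.0381), and the call was lost in 6 of 8 fits that left out a pool, with adjusted p up to 0.123. It was also lost under DESeq2's likelihood ratio test (adjusted p = 0.0729) and with limma on log2(TPM + 1) (0.218) or log2(TPM + 0.1) (0.217). Atp6v1c2 read 3.45, 4.93 and 15.7 CPM and Atp6v1g3 1.97, 1.48 and 32.7 CPM, in both cases high in cKO MTAL 20 alone, and neither passed (adjusted p = 0.152 and 0.0773).

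The rotor subunit Atp6v1f was the one ubiquitous subunit that was more expressed in cKO MTAL. It read 118, 95.7 and 164 CPM against 53.8 to 74.5 CPM in WT MTAL, with no overlap (log2 fold change 0.98, SE 0.162, adjusted p = 0.00195). Without cKO MTAL 20 the log2 fold change was 0.74 (adjusted p = 0.0135). The other 15 ubiquitous subunits did not pass, with log2 fold changes between -0.31 (Atp6v1b2) and 0.37 (Atp6v0b, of the c ring), and every one of them overlapped between the groups. Atp6v1a, the partner of B1 in the catalytic ring, read 281, 388 and 365 CPM in cKO MTAL (log2 fold change 0.30, SE 0.115, adjusted p = 0.125). Atp6v1e1 read 151, 159.9 and 200.2 CPM (0.27, adjusted p = 0.186), Atp6v1h 65.3, 73.3 and 48 CPM (0.18, adjusted p = 0.535) and Atp6v0e 75.3, 90.3 and 56.5 CPM (0.17, adjusted p = 0.563).

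Slc4a9 had the largest difference of the members in this comparison. It read 5.28, 22.5 and 32.5 CPM in cKO MTAL and 2.40, 2.09, 1.56, 2.31 and 1.63 CPM in WT MTAL, with no overlap (log2 fold change 3.37, SE 0.434, adjusted p = 0.000223), and passed in all 8 fits that left out a pool. Its log2 fold change without cKO MTAL 20 was 2.83 (adjusted p = 0.00318). Foxi1 read 5.42, 2.27 and 34.1 CPM against 4.87, 1.58, 4.63, 3.0 and 3.67 CPM and did not pass (log2 fold change 2.03, SE 0.623, adjusted p = 0.0607). Slc26a4 read 3.03, 2.42 and 26.5 CPM against 1.22 to 1.63 CPM. The Slc26a4 groups did not overlap, but the gene failed the filter here. Without the filter, Slc26a4 (log2 fold change 2.83, SE 0.503, adjusted p = 0.000127), Foxi1 (1.98, SE 0.465, adjusted p = 0.00528) and Atp6v1g3 (2.21, SE 0.534, adjusted p = 0.00683) passed. All 3 were highest in cKO MTAL 20, in which they read 26.5, 34.1 and 32.7 CPM. Slc4a1, Aqp6, Slc26a7 and Rhcg did not pass (adjusted p from 0.298 to 0.742). Rhbg was not tested with the filter.

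Other cell types moved with this comparison. Endothelial genes summed to 117 to 214 CPM in cKO MTAL and 221 to 335 CPM in WT MTAL, and 3 of 5 (Emcn, Plvap and Cdh5) fell. Red cell genes summed to 22.4 to 45.3 CPM in cKO MTAL and 3.16 to 28.8 CPM in WT MTAL, and 1 of 4 tested (Hbb-bt) rose. Genes of macrophages, which also express Atp6v0d2, and of other immune cells summed to 54.3 to 77.2 CPM in cKO MTAL and 48.5 to 83.2 CPM in WT MTAL, with none of 5 tested passing in edgeR (2 had an unadjusted p below 0.05). Principal cell genes summed to 95.6 and 98.3 CPM in 2 of the cKO MTAL pools and 995 CPM in cKO MTAL 20, with none of 6 tested passing in edgeR (4 had an unadjusted p below 0.05) at a median log2 fold change of 1.71. The proximal tubule gene Slc34a1 rose (2.39, adjusted p = 0.00657), and its list summed to 16.1 to 68.5 CPM in cKO MTAL and 13.2 to 26.7 CPM in WT MTAL. Genes of the distal convoluted and connecting tubule summed to 12.2 to 32.1 CPM in cKO MTAL and 6.01 to 11.3 CPM in WT MTAL. The 1 gene tested of them did not pass in edgeR (log2 fold change 1.73, unadjusted p below 0.05). Their part in the results was not tested, apart from the values given without cKO MTAL 20.

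**Figure D3:**
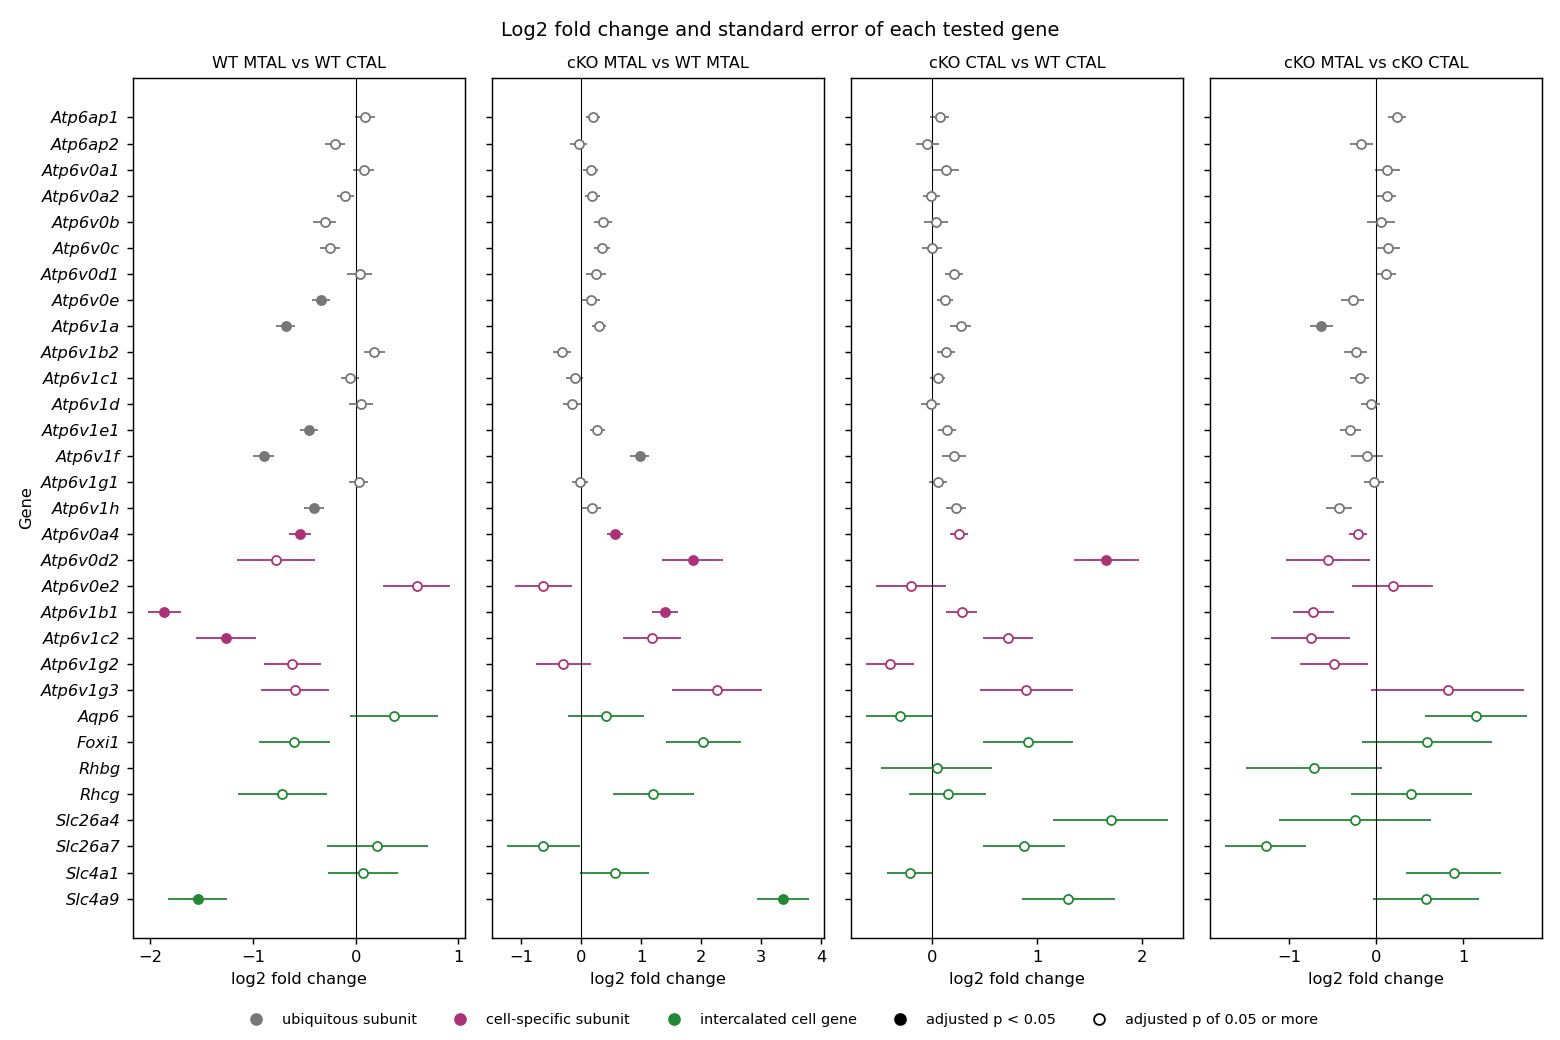
Log2 fold change (point) and its standard error (bar) of each tested member in the 4 comparisons; filled points passed at adjusted p < 0.05, and the axes differ between panels. The 9 filled points in the WT segment panel lie left of 0 and the 5 in the MTAL genotype panel lie right of it.

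In the CTAL, 1 of 31 members tested passed between cKO and WT, where 0.658% of 11702 genes were more expressed in cKO CTAL. It was Atp6v0d2, with 73.8, 15.6, 26.1, 41.1 and 32 CPM in cKO CTAL and 15.5, 9.23, 12, 10.3 and 12 CPM in WT CTAL. Every cKO CTAL pool was above every WT CTAL pool, the lowest only just (log2 fold change 1.66, SE 0.308, adjusted p = 0.0152). Without cKO CTAL 2 and 9, a choice made after seeing the data because these pools were high in collecting duct genes, its log2 fold change was 1.04 (adjusted p = 0.0566), and without WT CTAL 10 it was 1.61 (adjusted p = 0.0501). Macrophage and other immune cell genes summed to 55.2 to 87.9 CPM in cKO CTAL and 62.0 to 76.2 CPM in WT CTAL. Endothelial genes summed to 148 to 224 CPM in cKO CTAL and 178 to 413 CPM in WT CTAL. None of 5 passed in edgeR (4 had an unadjusted p below 0.05), at a median log2 fold change of -0.58. The ubiquitous counterpart of Atp6v0d2, Atp6v0d1, read 63.6, 55.8, 55.1, 62.9 and 66.1 CPM against 53, 48.6, 46.8, 55.8 and 57.3 CPM and did not pass (log2 fold change 0.20, SE 0.0831, adjusted p = 0.329).

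None of the 16 ubiquitous subunits passed in the CTAL, with 3 at an unadjusted p below 0.05 in edgeR and none passing by DESeq2's likelihood ratio test. Their log2 fold changes ran from -0.05 (the accessory subunit Atp6ap2, known as the prorenin receptor) to 0.27 (Atp6v1a), with a median of 0.09. Atp6v1a read 606, 476, 499, 608 and 609.6 CPM in cKO CTAL (log2 fold change 0.27, SE 0.103, adjusted p = 0.292), and Atp6v1f 129.8, 123, 123, 179.7 and 157 CPM (log2 fold change 0.21, SE 0.114, adjusted p = 0.515). Atp6v1b1 read 233, 230.5, 257, 291 and 377 CPM, overlapping WT CTAL (log2 fold change 0.28, SE 0.146, adjusted p = 0.496). Atp6v0a4 read 334, 285, 284, 288 and 307 CPM, above every WT CTAL pool, but the difference did not pass (log2 fold change 0.25, SE 0.0830, adjusted p = 0.198). In this direction 2 of the 31 members were apart, Atp6v0a4 and Atp6v0d2, against 1.9% of all genes.

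The intercalated cell genes did not pass in the CTAL, although 3 of 8 had an unadjusted p below 0.05, and DESeq2 called none of them. Slc26a4 read 30.7, 3.52, 4.29, 23.5 and 4.40 CPM in cKO CTAL (log2 fold change 1.70, SE 0.551, adjusted p = 0.191). Slc4a9 read 29.6, 4.18, 6.82, 21.4 and 8.45 CPM (log2 fold change 1.30, SE 0.445, adjusted p = 0.226). Both were high in cKO CTAL 2 and 9, and without these pools the log2 fold change of Slc4a9 was 0.16 (adjusted p = 0.93). Foxi1 read 13.5, 4.22, 3.74, 20.4 and 7.20 CPM and was highest in the same pair of pools (0.91, adjusted p = 0.427). Slc26a7 was highest in cKO CTAL 21 instead, at 9.25 CPM (0.87, adjusted p = 0.393).

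Between the segments of cKO mice, 1 of 31 members tested was lower in cKO MTAL, against 0.631% of 12044 genes. It was Atp6v1a, the catalytic subunit, at 281, 388 and 365 CPM in cKO MTAL and 606, 476, 499, 608 and 609.6 CPM in cKO CTAL, with no overlap (log2 fold change -0.63, SE 0.129, adjusted p = 0.0307). The call was lost in 5 of 8 fits that left out a pool, with adjusted p up to 0.0961, with limma on log2(TPM + 1) (0.119) or log2(TPM + 0.1) (0.123), and without cKO CTAL 2 and 9 and cKO MTAL 20 (0.133), a setting added after seeing the data. Atp6v1b1 read 128, 116 and 236 CPM in cKO MTAL and 233, 230.5, 257, 291 and 377 CPM in cKO CTAL, where cKO MTAL 20 overlapped the lowest cKO CTAL pools (log2 fold change -0.72, SE 0.240, adjusted p = 0.141). Without cKO MTAL 20 it passed (log2 fold change -1.13, adjusted p = 0.0194), as did Atp6v1c2 (-1.71, adjusted p = 0.0456). Atp6v1h and Atp6v0a4 were also lower in every cKO MTAL pool than in every cKO CTAL pool but did not pass (adjusted p = 0.156 and 0.301), so that 3 of 31 members were apart in this direction, against 7.28% of all genes. Atp6v1f (log2 fold change -0.11, SE 0.184, adjusted p = 0.805) and Atp6v1e1 (-0.29, adjusted p = 0.223) did not pass. Without the filter on low counts Atp6v1b1 also passed with all pools (-0.78, adjusted p = 0.0331), and without cKO MTAL 18 Atp6v1b2 (-0.42, adjusted p = 0.045) and Slc26a7 (-1.92, adjusted p = 0.0379) did. With the filter and all pools, no cell-specific subunit or intercalated cell gene passed in edgeR, with 1 of each at an unadjusted p below 0.05.

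The genotype effect was then compared between segments by the interaction of genotype and segment, fitted on all 18 pools. None of 31 members passed in edgeR, where 0.286% of 12586 genes did, with 5 members at an unadjusted p below 0.05, and DESeq2's likelihood ratio test called 1 (Atp6v1f). The effect of cKO was larger in the MTAL by a log2 difference of 1.10 for Atp6v1b1 (SE 0.287, adjusted p = 0.0764), 0.75 for Atp6v1f (SE 0.207, adjusted p = 0.0935) and 2.06 for Slc4a9 (SE 0.678, adjusted p = 0.141). For Atp6v0d2, which passed in edgeR with all pools in both segments but not under each alternative in either, the difference was 0.20 (SE 0.647, adjusted p = 0.922). Without cKO MTAL 18, Atp6v1b1, Atp6v1f and Atp6v1b2 passed. Apart from the call of Atp6v1f by DESeq2's likelihood ratio test (log2 difference 0.75, adjusted p = 0.0275), no alternative with all pools called a difference between the segments for the members.

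The ubiquitous subunits varied little between pools of a group, and the cell-specific subunits and intercalated cell genes more. The highest pool of a group was 1.27 to 1.34 times the lowest at the median over ubiquitous subunits, 2.01 to 3.48 times over tested cell-specific subunits and 2.3 to 8.56 times over intercalated cell genes. In WT CTAL the last 2 were close, at 2.01 and 2.3 times. The abundant cell-specific subunit Atp6v0a4 varied about as little as the ubiquitous ones, at 1.17 to 1.43 times by group, and Atp6v1b1 varied by 1.57 to 2.04 times. Of the 8 intercalated cell genes, 5 were highest of all 18 pools in cKO MTAL 20, 2 in cKO CTAL 2 and 1 in cKO CTAL 21. In cKO MTAL 20, Slc4a1 read 64.9 CPM, Aqp6 55.3 CPM and Rhcg, an ammonia transporter, 53.2 CPM, against 13.3, 8.80 and 6.20 CPM in cKO MTAL 16. The principal cell genes Aqp2 and Scnn1b were highest in the same pool, at 539 and 46.8 CPM. In cKO CTAL 2 and 9, Slc26a4 (30.7 and 23.5 CPM) and Rhcg (33 and 28.5 CPM) were high, with Scnn1b at 23.1 and 27.8 CPM. WT MTAL 11 was high in Slc4a1 (45.5 CPM), Aqp6 (40.2 CPM) and Aqp2 (149 CPM), but not in Slc26a4 (1.52 CPM). A different picture was seen in cKO MTAL 18, where Slc4a9 (22.5 CPM) and Atp6v0d2 (35.5 CPM) were high while Slc26a4 (2.42 CPM), Foxi1 (2.27 CPM), Slc4a1 (7.60 CPM) and Scnn1b (4.0 CPM) were not. Slc4a1 is also a red cell gene, and the gene totals do not separate its kidney form.

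**Figure D4:**
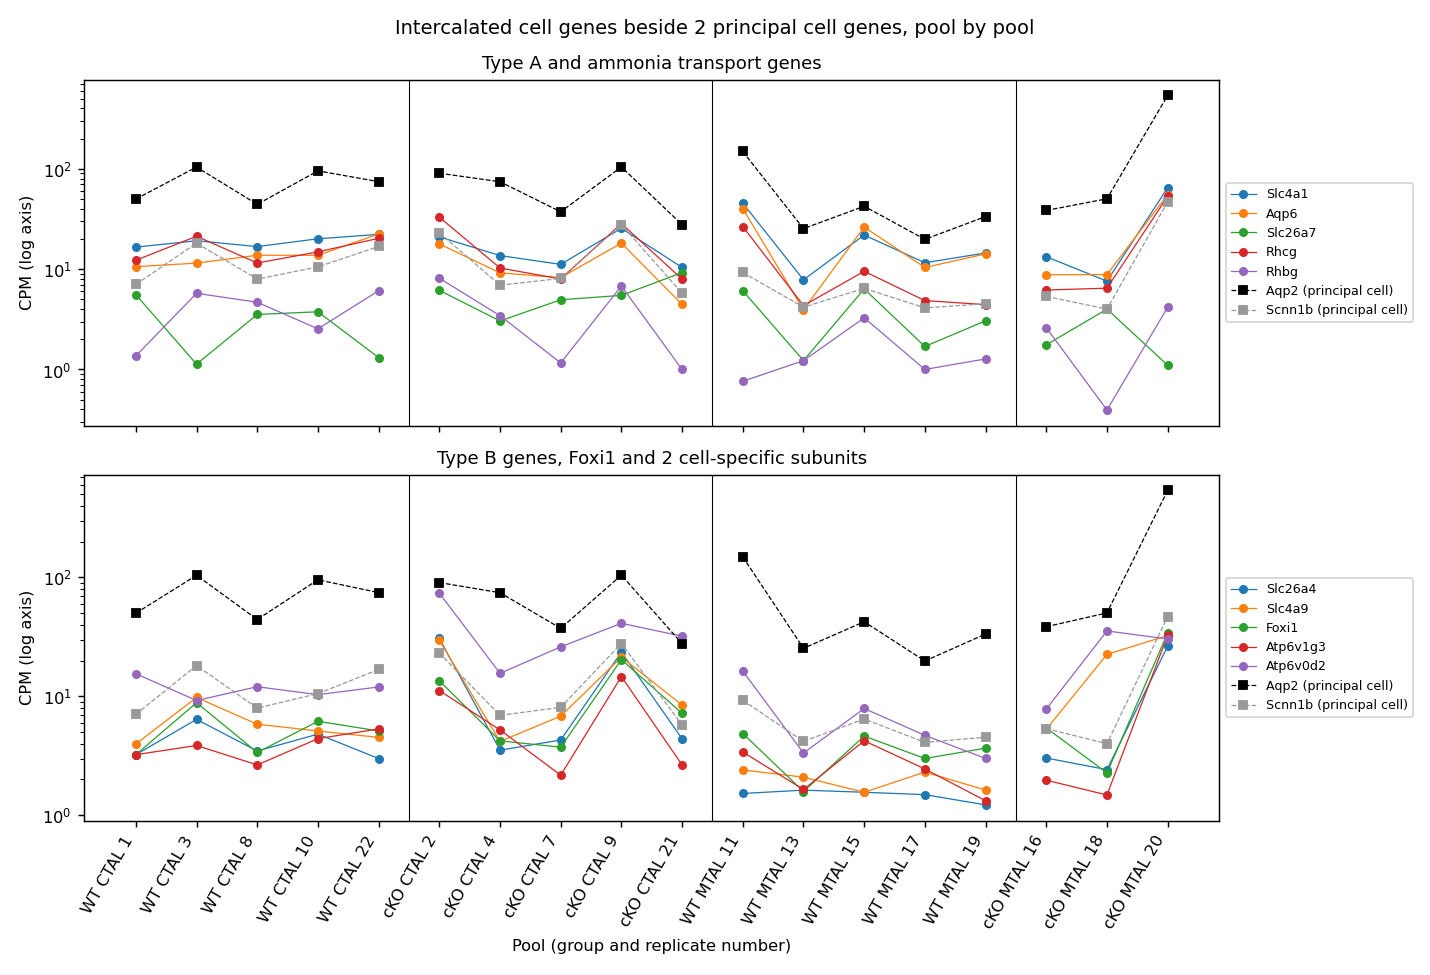
CPM (log axis) of 8 intercalated cell genes and 2 cell-specific subunits in each of the 18 pools, beside the principal cell genes Aqp2 and Scnn1b; thin lines join the pools of a group to ease reading and mark no order. Most genes peak in cKO MTAL 20, where Aqp2 reaches 539 CPM, and Slc4a9 and Atp6v0d2 are also high in cKO MTAL 18.

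Further genes of the pathway were read as lists. Of 13 genes for assembly and regulation of the pump, 12 were tested. Rogdi, a part of the RAVE complex that rejoins V1 with V0, had a lower level in the WT MTAL than in the WT CTAL (-0.57, adjusted p = 0.0159) and a higher one in cKO than in WT, in both MTAL (0.63, adjusted p = 0.046) and CTAL (0.41, adjusted p = 0.0366). In WT MTAL, Ncoa7 of the TLDc proteins that bind the pump was also lower (-0.41, adjusted p = 0.00607), and Dmxl2, another RAVE gene, was higher (0.45, adjusted p = 0.00955). The other comparisons had no call in this list. Of 19 lysosome genes, Ctsd, a lysosomal protease, was the one that passed, lower in WT MTAL (-0.31, adjusted p = 0.0279) and higher in cKO MTAL than in WT MTAL (0.70, adjusted p = 0.00748). The median log2 fold change of the lysosome list lay between -0.03 and 0.04 in the 4 comparisons.

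Of 9 further intercalated cell genes, 5 or 6 were tested in each comparison of groups. In the interaction 8 were tested and none passed in edgeR (2 had an unadjusted p below 0.05). The 9 summed to 362 to 460 CPM in WT CTAL and 657 to 1317 CPM in cKO CTAL. In WT MTAL they summed to 154 to 197 CPM and in cKO MTAL to 278 to 751 CPM. The highest sum was in cKO CTAL 21, lowest of its group in principal cell genes (72.7 CPM). In MTAL it was in cKO MTAL 20, highest in principal cell genes (995 CPM). Their origin in intercalated cells was not tested. Tmem61 (-1.52, adjusted p = 0.00407), Oxgr1, a receptor for 2-oxoglutarate (-1.98, adjusted p = 0.00253), and Car15, a membrane-bound carbonic anhydrase (-2.23, adjusted p = 2.64e-07), were lower in WT MTAL than in WT CTAL. Adgrf5, a receptor also expressed by endothelium, had values of the opposite sign and did not pass, with 0.50 between the WT segments (adjusted p = 0.0959), -0.80 between cKO MTAL and WT MTAL (adjusted p = 0.116) and -0.61 between cKO CTAL and WT CTAL (adjusted p = 0.121). Car15 alone of the list was higher in cKO MTAL than in WT MTAL (2.77, adjusted p = 9.28e-06) and in cKO CTAL than in WT CTAL (1.47, adjusted p = 0.00173). Between the cKO segments none passed in edgeR, although these 3 had an unadjusted p below 0.05, with Car15 at -0.91, adjusted p = 0.147, Tmem61 at -0.76, adjusted p = 0.22 and Oxgr1 at -1.40, adjusted p = 0.0958.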

How the data were processed

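RNA of 18 pools of TAL tubules was sequenced from a strand-specific library kit. The authors trimmed reads, mapped them to mm10 and quantified GENCODE genes with Illumina DRAGEN. The deposited values are estimated counts per gene, which need not be whole, and TPM from the same run; both tables were used, and 0 columns of values were left out. TPM carries no depth and follows the make-up of each pool.

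Counts were rounded and tested with edgeR 4.0.16 (R 4.3.3): TMM factors (0.919 to 1.08), the quasi-likelihood F test on the pools of the groups compared, and Benjamini-Hochberg adjustment over all genes tested. The filter on low counts kept genes that reached 3 CPM in 5 or more pools (3 or more for fits with cKO MTAL). A gene passed at an adjusted p below 0.05. Levels are CPM on TMM library sizes over all 18 pools. Alternatives were DESeq2 1.42.0 size factors, its likelihood ratio test, limma 3.58.1 on log2(TPM + 1) and log2(TPM + 0.1), no filter on low counts, each pool left out in turn with the tested genes kept, and WT CTAL 1 counted as cKO CTAL. The fits were also run on simulated counts with the same dispersion for every gene, large planted changes and no outlying pool. The real pools differ from this setting, so the simulation says nothing of calls that rest on single pools or small changes. Replicate pools differed by more than sampling noise (chi-square per gene 16.1 to 145, 33 pairs).

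Members, gene lists and tests were chosen with earlier results of these data known. Members that passed in a comparison are given pool by pool for its groups, and other values pool by pool or by range and count. Gene positions and overlaps were read from GENCODE M21, which held 55141 of 55401 identifiers, and promoters from RefSeq. Groups came from the pool names in the labels.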

Additional observations from a re-analysis of the deposited data

Results flagged for a closer look

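Over 93 sets of 5 pools (a member in WT CTAL, cKO CTAL or WT MTAL), 5 had a pool far from the other 4 by Dixon's criterion at 95%, which chance gives in about 1 of 20 such sets. In WT MTAL 11, Atp6v0a4 read 222 CPM against 155 to 171 CPM in the other WT MTAL pools, and Rhcg read 26.6 CPM against 4.33 to 9.52 CPM. That pool also had the second highest sum of principal cell genes, 334 CPM. In WT CTAL 22, Aqp6 read 22.4 CPM against 10.6 to 13.8 CPM. In WT MTAL 19, Atp6v1e1 read 169 CPM against 135 to 145 CPM, still below every WT CTAL pool. In WT MTAL 15, Rhbg read 3.27 CPM against 0.762 to 1.27 CPM, a level close to the filter of 3 CPM.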

How the results depend on the processing

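The count of members that passed was within 1.5 times its value under the other normalization, tests, filter and grouping, apart from the following. Between cKO MTAL and WT MTAL, 8 passed without the filter on low counts, and 3 to 7 when a pool was left out (3 without WT MTAL 19, and 7 without cKO MTAL 16, Atp6v1g3 and Foxi1 being added, as they were without cKO MTAL 18). Between cKO CTAL and WT CTAL, 0 to 1 passed when a pool was left out (0 without WT CTAL 10), and 0 without cKO CTAL 2 and 9, a setting added after seeing the data. Between WT MTAL and WT CTAL, 7 to 10 passed when a pool was left out. Between cKO MTAL and cKO CTAL, 0 passed by limma on log2(TPM + 1) and 0 on log2(TPM + 0.1), 2 without the filter, and 0 to 3 when a pool was left out (0 without cKO CTAL 2, 9 or 21 or cKO MTAL 16, 2 without cKO MTAL 20 and 3 without cKO MTAL 18). For the interaction, DESeq2's likelihood ratio test called 1, and 0 to 3 passed when a pool was left out (3 without cKO MTAL 18). Where the count moved, the cause was not tested. No member that passed changed direction under any alternative run.

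A tally over the alternatives was kept for members that passed in a comparison and the other tested genes of their subunit. These gave 1254 values on the same side of the threshold and close to the reported one, 77 that moved by more than the spread, 11 that newly passed and 34 that no longer did. Of the last, all belonged to Atp6v0e, Atp6v0d2, Atp6v0a4, Atp6v1h and Atp6v1a. Members outside this tally also newly passed in some alternatives, namely Foxi1, Atp6v1g3, Slc26a4, Rhcg and Slc26a7. No paired analysis was possible because the groups share no replicate numbers. The cKO MTAL group has 3 pools, and a fit without one of them rests on a pair. Slc26a4, at 1.22 to 6.40 CPM in the WT pools, was tested in the WT segments and in the MTAL only without the filter. Calls that turned on single pools were found in genes of low level (Foxi1, Atp6v1g3, Atp6v0d2) and of high level (Atp6v1a, Atp6v0a4, Atp6v0e) alike.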
